A study of Mus musculus with 6 samples.

Results

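The nuclear genes of the mitochondrial respiratory chain and the ATP synthase were followed in the liver of mice that lack Trim24. Members were all rows of the count files whose symbol begins with Nduf, Uqcr, Cox4 to Cox8 or Atp5, or is Sdha, Sdhb, Sdhc or Sdhd. This gave 90 of 23284 genes, with 38 for complex I, 4 for complex II, 8 for complex III, 18 for complex IV and 15 for complex V. A further 7 match the symbols but encode no subunit. These are the complex I assembly factors Ndufaf1 to Ndufaf4, the endoplasmic reticulum gene Cox4nb, and Atp5s and Atp5sl. Livers came from mice of the C57BL6/J strain at 8 weeks of age, 3 wild type and 3 with the genotype Trim24 -/-, and each gave 1 RNA library. Libraries are called WT1, WT2, WT3, KO1, KO2 and KO3 after the number in their labels. The sources used here do not say how the knockout allele was made or whether each library is a separate mouse. The p-values therefore set the difference between groups only against the spread of libraries within a group, which may be technical.

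The respiratory chain passes electrons from NADH through complex I, or from succinate through complex II, to ubiquinone, then through complex III and cytochrome c to complex IV, where oxygen is reduced. Complexes I, III and IV pump protons across the inner mitochondrial membrane, and complex V, the ATP synthase, uses the gradient to make ATP. Complexes I, III, IV and V combine subunits from nuclear genes with subunits encoded in mitochondrial DNA, while complex II is encoded in the nucleus alone. Hepatocytes are rich in mitochondria and depend on the chain for gluconeogenesis, urea synthesis and fatty acid oxidation. The files hold 0 rows with a mitochondrial genome symbol, so the mitochondrially encoded subunits are not analysed here.

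The promoters of the 4 members with the smallest p-values are shown. These are Cox7c and Sdhb, the members that passed the test, and Atp5g3 and Ndufa8, the next by p-value, with fitted changes of opposite sign. Each window runs from 250 bases before to 50 bases after the transcript start in RefSeq (GRCm38.p6) and is written 5′ to 3′ on the strand of the gene. Capitals mark matches, on either strand, to the core motif of NRF1 (GCATGCGC), the ETS motif bound by GABP (CCGGAAG), the YY1 motif (AANATGGC) or the motif of the estrogen-related receptors (TCAAGGTCA), factors known as regulators of respiratory chain genes.
Cox7c, chr13:86046746-86047045, minus strand: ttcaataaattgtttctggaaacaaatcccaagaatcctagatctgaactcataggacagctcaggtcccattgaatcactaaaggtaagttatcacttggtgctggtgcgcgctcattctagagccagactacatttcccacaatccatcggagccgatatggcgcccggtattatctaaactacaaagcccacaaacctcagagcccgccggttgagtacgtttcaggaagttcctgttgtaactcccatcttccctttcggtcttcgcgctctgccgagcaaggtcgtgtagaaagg
Sdhb, chr4:140961021-140961320, plus strand: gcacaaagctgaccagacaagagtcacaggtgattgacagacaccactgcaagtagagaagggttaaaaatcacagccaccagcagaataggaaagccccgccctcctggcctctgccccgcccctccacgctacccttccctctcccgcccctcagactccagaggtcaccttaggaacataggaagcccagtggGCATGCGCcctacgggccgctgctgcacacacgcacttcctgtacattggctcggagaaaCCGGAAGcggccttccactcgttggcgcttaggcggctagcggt
Atp5g3, chr2:73911277-73911576, minus strand: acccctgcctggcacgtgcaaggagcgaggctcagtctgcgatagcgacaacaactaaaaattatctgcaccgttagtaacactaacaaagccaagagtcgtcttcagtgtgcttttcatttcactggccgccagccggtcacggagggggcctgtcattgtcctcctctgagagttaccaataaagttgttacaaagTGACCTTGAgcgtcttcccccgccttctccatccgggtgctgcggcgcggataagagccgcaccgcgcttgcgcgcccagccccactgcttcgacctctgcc
Ndufa8, chr2:36049289-36049588, minus strand: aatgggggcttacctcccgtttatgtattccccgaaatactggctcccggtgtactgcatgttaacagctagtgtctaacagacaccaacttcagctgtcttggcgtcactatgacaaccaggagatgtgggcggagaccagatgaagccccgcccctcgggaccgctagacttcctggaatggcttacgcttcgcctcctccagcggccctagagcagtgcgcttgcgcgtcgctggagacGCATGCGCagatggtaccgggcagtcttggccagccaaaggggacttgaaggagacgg

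Sdhb held an NRF1 match and an ETS match, Ndufa8 an NRF1 match and Atp5g3 a match to the estrogen-related receptor motif. Cox7c held none of these letters in its window. Of the 74 members with a promoter in the table, 14.9% held the NRF1 core, against 6.23% of 7349 tested genes and 3.05% of all 27025 genes in the table. For the YY1 motif the shares were 25.7%, 10.8% and 6.96%, and for the ETS motif 23.0%, 21.4% and 9.93%. The estrogen-related receptor motif was in the window of 2 members, Atp5g3 and Sdhd (2.70%, against 0.272% and 0.466%). These are matches of letters in a window of 300 bases, and they do not show binding.

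Reads counted in genes came to between 1495583 and 2872421 per library, which was 4.22% to 6.69% of all counted reads, with KO3 the deepest. Values below are CPM, counts per 1000000 reads in tested genes after scaling by TMM factors, and log2 fold changes are knockout over wild type from the edgeR quasi-likelihood fit over 9180 genes, with Benjamini-Hochberg adjusted p-values. Trim24 had 31, 45 and 44 counts in the wild type libraries, in order of their number, and 3, 2 and 2 in the knockout libraries (log2 fold change -4.46, SE 0.39, adjusted p = 2.1e-05). The hepatocyte markers summed to 118158 to 132893 CPM in wild type and 84174 to 115252 in knockout, so the tissue matched its label. The 24 markers of pancreatic acinar cells reached a sum of 1207 CPM in KO1 and of 769 in KO3, where the wild type libraries had 12.5 to 41.9 and KO2 had 14.1, with Prss1, Amy2a5 and Try10 at 0 in every library. Cela1, the 1 of them that was tested, was at 12.4 ± 2.6 CPM in wild type and 42.7 ± 29.0 in knockout (1.78, adjusted p = 0.046). That call ended with DESeq2, with limma-voom and without any 1 of the libraries WT1, WT2, WT3, KO1 and KO3. The 11 muscle markers summed to 60.1 CPM in WT1 and at most 7.65 CPM elsewhere.

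Few members passed the test, and more of them lay below wild type than above it. Of the 90, 79 passed the filter on low counts, and of these 0 were called higher and 2 were called lower in the knockout, Cox7c and Sdhb. That is 2.53% of the members tested, where 5.73% of all tested genes were called, 3.08% higher and 2.65% lower. RLE factors, upper-quartile factors, DESeq2 and limma-voom called the same 2 members. At an unadjusted p under 0.05, 6 members were higher and 10 lower, where 10.3% and 9.97% of all tested genes were. The median log2 fold change was -0.10, with the middle of the members between -0.26 and 0.08 (quartiles) and the extremes at -0.78 and 0.84, beside a median of 0.01 over all tested genes. The fitted change was negative for 55 of 79 members (69.6%, against 49.2% of all tested genes), and with library sizes alone as the scaling for 42 (53.2%, against 39.5%).

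**Figure D1:**
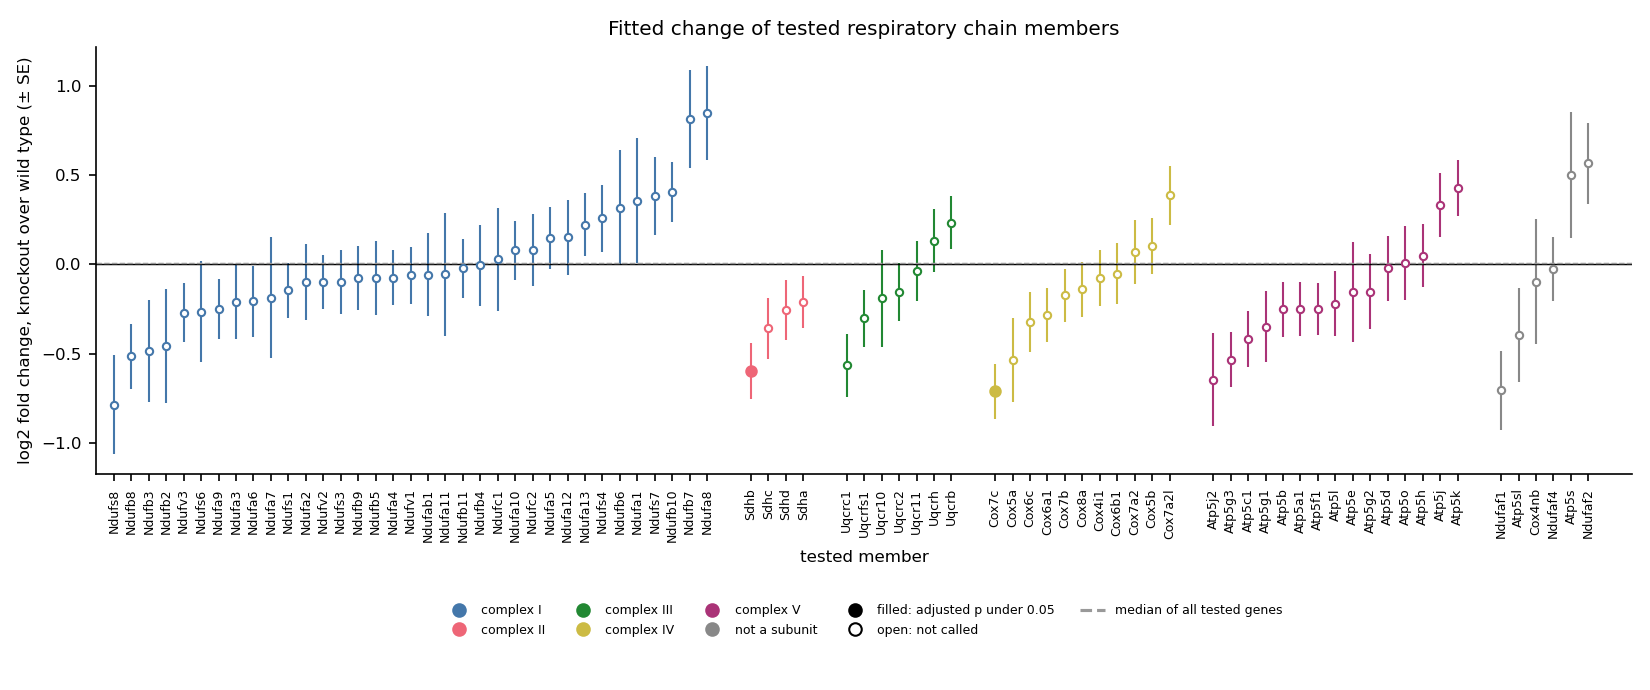
Log2 fold change of knockout over wild type for 78 of the 79 tested members, grouped by complex, with bars of 1 SE from the edgeR fit; filled points passed an adjusted p under 0.05. The filled points are Sdhb and Cox7c, and all 4 complex II subunits lie below 0.

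The size of change that these libraries could show was limited by counting and by the spread of 3 libraries per group. The median SE of the members was 0.18 on the log2 scale, against 0.24 for all tested genes. The 95% interval of the fitted change lay within a 2-fold change in either direction for 66 of 79 members (83.5%, against 70.01% of all tested genes), and within 1.5-fold for 33. Changes within these intervals could not be resolved. Groups did not overlap for 8 members on the higher side and 16 on the lower side (10.1% and 20.3%, against 12.4% and 12.6% of all tested genes). With library sizes alone these were 9 and 9 (11.4% each, against 16.9% and 8.75%).

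Other settings moved the calls by a few members, and each count stands here beside the shares of all tested genes called higher and lower. With library sizes alone the call of Cox7c was kept and that of Sdhb was not (0 higher and 1 lower, against 4.06% and 1.87% of all tested genes). At an adjusted p under 0.1, Ndufa8 was called higher, and Atp5g3, Ndufaf1 and Uqcrc1 were lower beside Cox7c and Sdhb (1 and 5, against 4.85% and 4.76%). The exact test of edgeR called Ndufa8 higher and Atp5g3, Cox7c and Sdhb lower (4.17% and 3.87%). Without the filter on low counts, 86 members were tested and 2 were called higher, Cox6b2 and Ndufa8, and 5 lower (3.39% and 3.0%). With a filter of 1 CPM in 3 libraries, Cox7c and Sdhb were called lower and Cox6b2 higher (2.46% and 1.99%), but Cox6b2 passed that filter only through the knockout libraries, where it was high. Leaving out 1 wild type library ended all calls among the members. The background was then 1.83% higher and 1.49% lower without WT1, 1.78% and 1.07% without WT2, and 1.34% and 1.0% without WT3. Without KO3, Atp5g3, Atp5j2 and Cox7c were called lower (2.15% and 1.84%).

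Complex I, the NADH dehydrogenase, had the median nearest 0 of the 5 complexes with all libraries kept, though not without KO2, where that was complex III (-0.01 against -0.03). Of its 38 genes 36 were tested and 0 were called in either direction, where 5.73% of all tested genes were called. The median log2 fold change was -0.07, with 23 of 36 negative. With library sizes alone the median was 0.02, where that of all tested genes was 0.10. The summed level of its genes was 2123, 1844 and 1958 CPM in the wild type libraries and 1967, 1829 and 1966 CPM in the knockout libraries. The groups overlapped. The core subunits of the NADH-binding arm were near wild type, with Ndufs1, the largest iron-sulfur subunit, at 184, 175 and 186 CPM in wild type and 185, 139 and 170 CPM in knockout (log2 fold change -0.14, 95% interval -0.48 to 0.19). The flavoprotein subunit genes Ndufv1 and Ndufv2 had changes of -0.06 and -0.10. In the quinone-binding arm Ndufs8, an iron-sulfur subunit, lay lowest, at 15.4, 21.2 and 17.8 CPM in wild type and 9.29, 8.14 and 13.2 CPM in knockout. All knockout libraries were below all wild type libraries, but the change of -0.78 (SE 0.28) did not pass (edgeR adjusted p = 0.13). Ndufs3 and Ndufs7, also core subunits of that arm, had changes of -0.10 and 0.38.

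Among the accessory subunits of complex I the members nearest the threshold went both ways. Ndufa8, an accessory subunit of the intermembrane space side, had 18.2, 10.6 and 17.2 CPM in wild type and 31.6, 30.4 and 21.9 CPM in knockout (log2 fold change 0.84, SE 0.26, adjusted p = 0.079). Ndufb7, also on that side, had 7.68, 9.92 and 8.31 CPM in wild type and 14.9, 14.7 and 16.0 CPM in knockout (0.81, SE 0.27, adjusted p = 0.10). Both had every knockout library above every wild type library, at counts of 11 to 63 per library. Ndufb8, a membrane arm subunit often used as a protein marker of assembled complex I, went the other way. Its levels were 74.0, 52.9 and 61.8 CPM in wild type and 39.0, 41.8 and 50.1 CPM in knockout (-0.51, SE 0.18, adjusted p = 0.13). Ndufb10, another membrane arm subunit, had every knockout library above every wild type library, at 47.4 ± 2.7 and 62.7 ± 8.8 CPM (0.41, adjusted p = 0.19). Ndufb8 shares exon sequence with another annotated gene on the same strand. Ndufa4, first assigned to complex I and now regarded as a complex IV subunit, was at 201, 163 and 167 CPM in wild type and 172, 178 and 154 CPM in knockout (-0.07, 95% interval -0.40 to 0.25), which overlapped. Its paralogue Ndufa4l2 had 0 to 4 counts in any library and was not tested. Ndufs5 had 2 counts in WT1, 1 in KO3 and 0 in the others, and a transcript of another annotated gene shares near-identical sequence with it. Rows of reads aligned to several places were at 0 in all files, so how such reads were treated before counting cannot be read from them.

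Complex II, succinate dehydrogenase, links the tricarboxylic acid cycle to the chain, and it was the complex with the lowest median. All 4 of its genes were tested and had a negative fitted change, with a median of -0.31. The test called 1, where 5.73% of all tested genes were called. Sdhb, the iron-sulfur subunit that hands electrons on towards ubiquinone, had 136, 131 and 147 CPM in wild type and 102, 77.6 and 94.98 CPM in knockout. Every knockout library was below every wild type library, and Sdhb fell from 138 ± 8.3 to 91.4 ± 12.4 CPM (SD, n = 3 each, log2 fold change -0.60, SE 0.16, edgeR adjusted p = 0.039), which is 1.51-fold. Sdhc, a membrane anchor, had 103, 108 and 115 CPM in wild type and 89.8, 64.6 and 98.8 CPM in knockout (-0.36, adjusted p = 0.27). The other anchor gene Sdhd, at 108, 89.9 and 99.8 against 97.8, 67.3 and 84.2 CPM, overlapped between the groups (-0.26, adjusted p = 0.44). Sdha, the flavoprotein that oxidizes succinate, was at 555, 474 and 518 CPM in wild type and 463, 434 and 439 CPM in knockout. These did not overlap, with a change of -0.21 (SE 0.15) that did not pass (adjusted p = 0.45).

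The call of Sdhb rested on the libraries kept. It ended without WT1, WT2, WT3, KO2 or KO3 (edgeR adjusted p = 0.0905, 0.085, 0.15, 0.15 and 0.067) and with library sizes alone (0.068). In all 16 alternatives the log2 fold change was between -0.84 and -0.49. Summed over the 4 genes, complex II was at 902, 804 and 879 CPM in wild type and 752, 643 and 717 CPM in knockout, so all knockout libraries were lower. With library sizes alone the sums were 872, 768 and 864 against 765, 685 and 728 per 1000000 reads, which left WT2 and KO1 close to each other.

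In complex III, the cytochrome bc1 complex, fitted changes by role overlapped in range. The genes of the core and iron-sulfur subunits were all 3 negative, with a median log2 fold change of -0.30 (-0.56 to -0.15). The 4 tested accessory subunits had a median of 0.05 (-0.19 to 0.23), with 2 negative. No member of either was called, where 5.73% of all tested genes were. Uqcrc1, a core subunit, had 83.8, 66.1 and 97.4 CPM in wild type and 60.1, 48.8 and 58.4 CPM in knockout, with no overlap (-0.56, SE 0.18, adjusted p = 0.081). Uqcrfs1, the Rieske iron-sulfur protein that passes electrons to cytochrome c1, had 93.6, 96.6 and 93.8 CPM in wild type and 91.6, 67.3 and 72.4 CPM in knockout (-0.30, adjusted p = 0.31). Uqcrc2, the other core subunit, overlapped between the groups (126 ± 2.6 and 113 ± 20.1 CPM, -0.15). Among the accessory subunits Uqcrb, which lies near the ubiquinone-binding site, had 181, 156 and 187 CPM in wild type and 215, 192 and 209 CPM in knockout (0.23, adjusted p = 0.41). Uqcrh, the acidic hinge protein that helps cytochrome c to dock, had the highest count of the complex, at 321, 231 and 252 CPM in wild type and 275, 259 and 345 CPM in knockout (0.13, adjusted p = 0.73). Uqcrq was under the filter, with 15, 10 and 6 counts in wild type and 8, 5 and 9 in knockout. Whether core and accessory genes differ from each other was not tested, and the sum of all 8 genes overlapped between the groups (756 to 914 and 732 to 916 CPM).

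In complex IV, cytochrome c oxidase, 1 of 11 tested genes was called, where 5.73% of all tested genes were. This was Cox7c, a small subunit encoded in the nucleus. Its levels were 75.4, 76.7 and 67.1 CPM in wild type and 46.4, 42.9 and 44.5 CPM in knockout, from 75 to 128 counts per library. The groups lay well apart and each was tight, and Cox7c fell from 73.1 ± 5.2 to 44.6 ± 1.8 CPM (SD, n = 3 each, log2 fold change -0.71, SE 0.16, edgeR adjusted p = 0.017), which is 1.64-fold. The call ended without WT1, WT2, WT3 or KO2 (adjusted p = 0.063, 0.075, 0.0504 and 0.066) and with KO2 as the only knockout library (0.068). The log2 fold change was between -0.78 and -0.62 in all 16 alternatives. Transcripts of 3 other annotated genes share near-identical sequence with Cox7c (at least 100 bases at 95% identity), so reads could be split among them.

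The other widely expressed complex IV subunits did not pass, and the 11 tested had a median log2 fold change of -0.14, with 8 negative. Cox5a, a subunit on the matrix side, had 35.6, 50.9 and 55.2 CPM in wild type and 44.6, 27.7 and 27.5 CPM in knockout, which overlapped (-0.53, adjusted p = 0.22). Cox6c was at 71.2, 88.6 and 76.0 CPM in wild type and 66.9, 70.01 and 52.9 CPM in knockout (-0.32, adjusted p = 0.30). Cox7b, at 160 ± 18.4 and 142 ± 3.4 CPM, and Cox6b1, at 203 ± 29.6 and 196 ± 32.4 CPM, had the highest mean counts of the complex and overlapped between the groups (-0.17 and -0.05). Cox6a1, the form of Cox6a found in most tissues, was at 82.1 ± 4.6 and 67.5 ± 6.8 CPM, without overlap (-0.28, adjusted p = 0.32). Cox4i1, a nuclear subunit that binds the core early in assembly, Cox5b, Cox7a2 and Cox8a overlapped between the groups, with changes of -0.07, 0.10, 0.07 and -0.14. Cox7a2l, counted with complex IV by its symbol, stood on the other side (0.39, SE 0.17, edgeR adjusted p = 0.21). Its levels were 59.4, 61.5 and 64.1 CPM in wild type and 70.6, 73.8 and 96.0 CPM in knockout.

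Isoforms of complex IV subunits known from lung, muscle or testis were at or near 0. Cox4i2, Cox6a2, Cox7b2 and Cox8c had 0 counts in every library, where a count of 0 allows up to 3 counts, or 1.04 to 2.10 CPM by library, for counting error only. Cox8b, the muscle isoform of Cox8, had 2 counts, both in WT1, the library with the highest sum of muscle markers, where the part of muscle RNA was not tested. Cox7a1 had 0 to 2 counts in any library. Cox6b2, known as the testis isoform of Cox6b, had 0, 0 and 2 counts in wild type and 6, 5 and 27 in knockout, which is 3.72, 2.71 and 9.39 CPM in KO1, KO2 and KO3. The ratio of knockout to wild type was 13.9, with a 95% counting interval of 3.59 to 119. KO3 held 27 of the 38 knockout counts, and without it the ratio was 7.36 (1.61 to 68.3). Both wild type counts were in WT3, and without it the knockout was at least 5.89-fold higher, with 3 counts over the wild type group as the floor. Every knockout library was above every wild type library, and the exact permutation test gave p = 0.1, two-sided, the smallest that 3 against 3 libraries allow. Cox6b2 was under the filter of the main comparison. The fit with no filter gave it an edgeR adjusted p of 0.00051. That fit also moved the adjusted p of Coq10b, a gene outside the members, from 0.074 to 0.00011. With a filter of 1 CPM in 3 libraries, which Cox6b2 passed only through the knockout libraries, its adjusted p was 0.035.

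**Figure D2:**
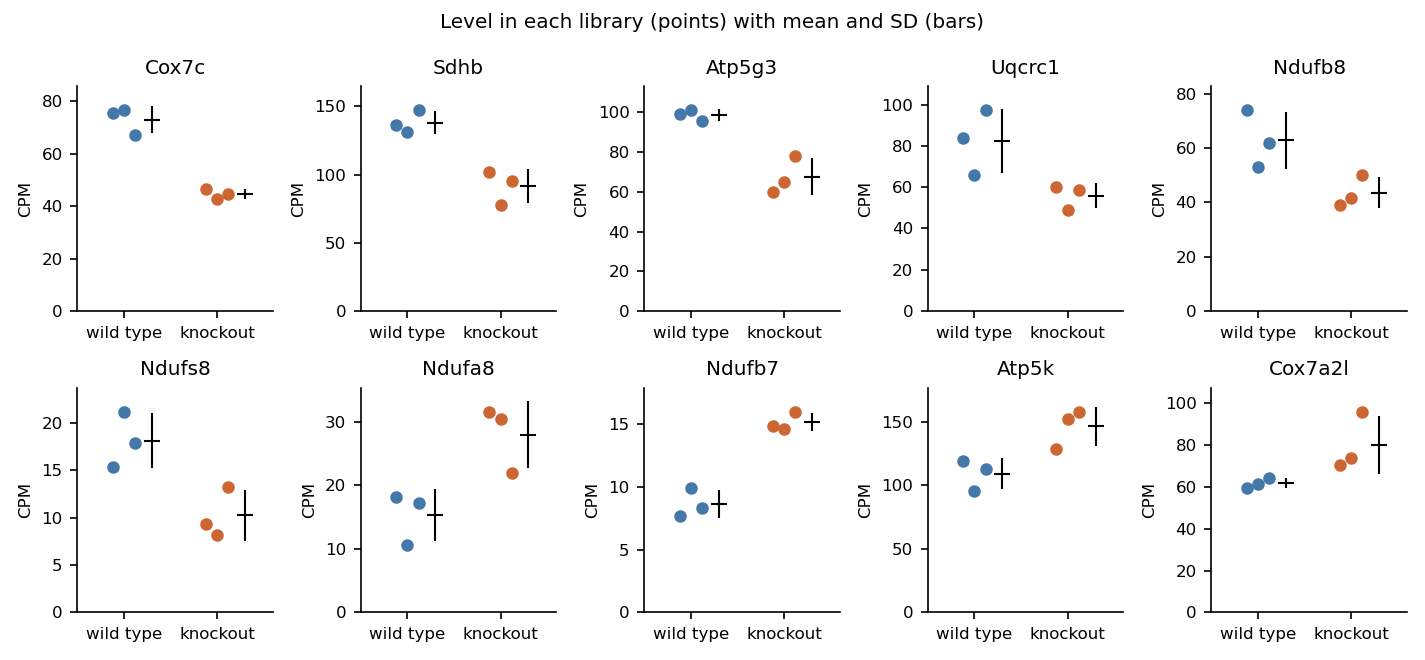
CPM of 10 members in each library, wild type in blue and knockout in orange, with the mean and SD of 3 libraries as bars and the axis from 0. Cox7c and Sdhb passed the test. The others are a choice of uncalled members with an edgeR adjusted p of 0.061 to 0.21, and some members in that range, such as Ndufaf1 (0.081), are not shown. Of those shown, Ndufa8, Ndufb7, Atp5k and Cox7a2l lie higher in the knockout.

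All 15 genes of complex V, the ATP synthase, were tested, and 0 were called, where 5.73% of all tested genes were. The median log2 fold change was -0.22, with 11 of 15 negative. The 5 genes of the catalytic F1 part were all negative, with a median of -0.25 (-0.42 to -0.02). Over the alternatives Atp5d ranged from -0.16 to 0.066 and Atp5e from -0.63 to 0.068, so the sign of these did not hold throughout. Atp5b, the catalytic beta subunit and the member with the most reads, had 759, 835 and 859 CPM in wild type and 699, 601 and 759 CPM in knockout. KO3 was level with WT1, and the change of -0.25 (SE 0.15) did not pass (adjusted p = 0.38). Atp5a1, the alpha subunit, had 585, 509 and 520 CPM in wild type and 493, 398 and 464 CPM in knockout, without overlap (-0.25, adjusted p = 0.38). Atp5c1, the gamma subunit of the rotating stalk, had 286, 260 and 297 CPM in wild type and 215, 179 and 237 CPM in knockout, without overlap (-0.42, SE 0.16, adjusted p = 0.15).

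The proton-conducting ring of complex V is built from a single peptide made by 3 genes, Atp5g1, Atp5g2 and Atp5g3, whose precursors differ in their targeting sequence. Atp5g3 had 99.2, 101 and 95.6 CPM in wild type and 60.1, 65.1 and 77.9 CPM in knockout. The groups were apart, and the change of -0.53 (SE 0.15) was just outside the threshold (edgeR adjusted p = 0.061, and 0.041 to 0.17 over the alternatives). The other ring genes had changes of -0.35 for Atp5g1 and -0.15 for Atp5g2, and the sum of the 3 genes was 193, 242 and 219 CPM in wild type and 179, 142 and 183 CPM in knockout, without overlap. The 4 genes of the peripheral stalk had a median of 0.03, with Atp5f1 at -0.25 and Atp5j at 0.33. Atp5j shares exon sequence with Gabpa, on the opposite strand, and the counting does not state a strand. Among the small membrane subunits Atp5k, which takes part in dimerization of the synthase, had 119, 95.2 and 113 CPM in wild type and 129, 153 and 158 CPM in knockout (0.43, SE 0.16, adjusted p = 0.14). Atp5j2, another membrane subunit, had 37.7, 27.8 and 32.7 CPM in wild type and 16.1, 15.7 and 28.9 CPM in knockout (-0.64, SE 0.26, adjusted p = 0.18). KO3 was above WT2, and Atp5j2 was called without KO3 (adjusted p = 0.037).

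**Figure D3:**
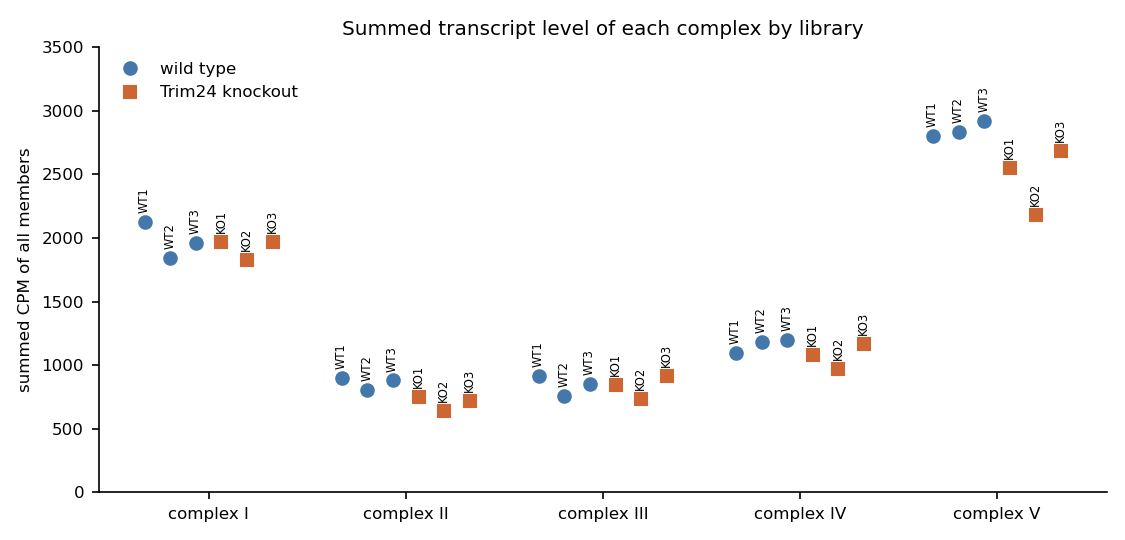
Summed CPM of all genes of each complex in each library, circles for wild type and squares for knockout, with the axis from 0. Complex II and complex V are lower in all 3 knockout libraries, with KO2 lowest, while complexes I, III and IV overlap. The sum over all tested genes, not shown, is also lower in all 3 knockout libraries.

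Complex V summed to 2798, 2831 and 2922 CPM in wild type and 2553, 2182 and 2680 CPM in knockout, and complex IV to 1097, 1180 and 1201 against 1084, 974 and 1165 CPM. The complex V groups did not overlap, but with library sizes alone they did (2707 to 2871 and 2325 to 2720 per 1000000 reads). KO2 had the lowest sum of the knockout libraries for each of the 5 complexes. All tested genes together summed to 1033783, 1045766 and 1017736 CPM in wild type and 982778, 938469 and 985429 CPM in knockout. That sum was thus also lower in all knockout libraries and lowest in KO2. The ratio of mean sums, knockout to wild type, was 0.94 for all tested genes. For complexes I to V it was 0.97, 0.82, 0.99, 0.93 and 0.87. KO2 also had the lowest sum of the 10 hepatocyte markers, at 84174 CPM, against 108892 in KO1 and 115252 in KO3, with none at 0. Of the 10, 1 was lower by the test (10%, where 2.65% of all tested genes were), Cyp2e1, which fell from 6708 ± 176 to 2955 ± 974 CPM. The 13 Kupffer cell and macrophage markers in the files summed to 233 to 428 CPM in wild type and 378 to 723 CPM in knockout, highest in KO2, with none at 0. Of the 12 tested, 3 were called higher (25%, where 3.08% of all tested genes were), namely C1qc (10.6 ± 4.6 to 27.2 ± 6.5 CPM), Mpeg1 (32.9 ± 9.8 to 84.3 ± 41.0) and Ctss (25.3 ± 11.2 to 60.9 ± 18.5). The 9 stellate cell markers summed to 495 to 524 CPM in wild type and 651 to 763 CPM in knockout, without overlap and highest in KO2. Col1a2 (8.78 ± 1.74 to 24.4 ± 9.1 CPM) and Dcn (232 ± 7.0 to 366 ± 46.7) were called higher. That is 2 of 7 tested (28.6%, where 3.08% of all tested genes were). The 8 endothelial markers summed to 440 to 455 CPM in wild type and 349 to 447 CPM in knockout, lowest in KO2. Tek was called higher (33.2 ± 1.6 to 106 ± 17.0 CPM), and Stab2 (119 ± 5.7 to 63.1 ± 18.7) and Ehd3 (72.9 ± 6.4 to 40.8 ± 9.0) lower. Of all tested genes 3.08% were called higher and 2.65% lower. None of the stellate or endothelial markers was at 0 throughout. The calls of Cyp2e1 and Tek held in all alternatives, and those of the other 7 markers ended without WT3 for 6 and without WT1, WT2 or KO2 for Col1a2. Markers of bile duct and red blood cells did not pass, with Spp1 at 16.2 ± 4.6 and 17.98 ± 6.3 CPM, Beta-s at 43.5 ± 11.2 and 41.6 ± 4.5, and Alas2 at 148 ± 10.98 and 146 ± 34.7. In whole liver RNA fewer hepatocytes and less RNA per hepatocyte cannot be told apart, and the part of cell composition in these values was not tested. With KO2 as the only knockout library the median log2 fold changes were -0.14, -0.66, -0.48, -0.23 and -0.45 for complexes I to V, and Sdhb was the 1 member called lower of 80, where 2.98% of all tested genes were called higher and 2.65% lower. This fit takes the lone library to vary as the wild type libraries do. Without KO2 no member was called (2.03% of tested genes higher and 1.14% lower), the members had a median of -0.05, and complexes I to V had medians of -0.03, -0.19, -0.01, -0.05 and -0.05.

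Levels between genes were compared per kilobase of the principal GENCODE M21 transcript, for 89 of the 90 members. On this scale Uqcrh was at 489 and 536 CPM per kilobase in wild type and knockout, Atp5b at 427 and 358, Cox6b1 at 329 and 317, Uqcrb at 327 and 384, and Ndufa4 at 290 and 276. Sdha was at 178 and 153, and Sdhb at 121 and 80.0. Ndufa8 and Ndufb7, which lay near the threshold, were at 17.8 and 13.9 CPM per kilobase in wild type. The members were short, with a median transcript of 892 bases against 3112 bases for all tested genes with a length. The rank correlation of transcript length with fitted change was -0.17 over 78 members and -0.04 over 8873 genes, as descriptions across genes that share the same libraries.

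The 7 matches that are no subunits held 0 calls among 6 tested, where 5.73% of all tested genes were called. Ndufaf1, a complex I assembly factor, had 37.7, 32.4 and 33.3 CPM in wild type and 23.5, 15.7 and 23.7 CPM in knockout, without overlap (-0.70, SE 0.22, adjusted p = 0.081). Ndufaf2, a chaperone of the same complex, stood on the other side at 14.0, 15.2 and 13.7 against 19.8, 20.6 and 22.6 CPM (0.56, SE 0.23, adjusted p = 0.18). Ndufaf4 was at 43.7 ± 3.6 and 43.1 ± 5.4 CPM, and Ndufaf3 was under the filter. Atp5s and Atp5sl had changes of 0.50 and -0.39.

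Other genes of oxidative metabolism were read against the same share of 5.73% of all tested genes called. Of 18 genes of the tricarboxylic acid cycle and pyruvate oxidation 1 fell (5.56%) and none rose, with a median of -0.21. Pdha1, the E1 alpha subunit of pyruvate dehydrogenase, had 203, 182 and 186 CPM in wild type and 117, 119 and 116 CPM in knockout, and it fell by 0.70 on the log2 scale (SE 0.14, edgeR adjusted p = 0.012). The call ended without WT3 (adjusted p = 0.051) and with KO2 as the only knockout library (0.082). Of 16 tested genes for electron carriers, ubiquinone synthesis and subunits outside the symbols used, 0 were called, with Coq10b at 53.8 ± 26.8 and 103 ± 23.9 CPM (adjusted p = 0.074) and Etfa, the electron transfer flavoprotein alpha subunit, at 143 ± 27.6 and 99.97 ± 13.4 CPM (0.11). Of 25 tested assembly factors 0 were called, with Ecsit at 35.3 ± 4.4 and 23.4 ± 2.3 CPM and Cox10, which makes heme for complex IV, at 6.87 ± 0.75 and 12.6 ± 1.5 CPM. Of 11 tested mitochondrial stress and antioxidant genes 0 were called, and Hspe1, the mitochondrial chaperonin partner, was nearest, at 341 ± 50.1 and 570 ± 198 CPM (adjusted p = 0.064), with Hspd1, the chaperonin itself, at 298 ± 21.9 and 371 ± 64.5 CPM. Of 6 tested nucleotide carriers, porins and uncoupling proteins 0 were called, with Vdac1 at 110 ± 3.3 and 89.1 ± 7.2 CPM and Ucp2 at 25.6 ± 7.0 and 34.3 ± 3.5 CPM, while Ucp1 had 0 counts.

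Regulators of mitochondrial biogenesis had 0 calls among 19 tested, beside 5.73% of all tested genes, and a median of 0.03. Pprc1 was nearest the threshold, at 4.19, 1.32 and 4.16 CPM in wild type and 8.05, 12.5 and 6.96 CPM in knockout (1.46, SE 0.45, adjusted p = 0.078). Ppargc1b, a coactivator of mitochondrial genes, was at 9.06 ± 0.45 and 4.85 ± 2.40 CPM (-0.89, adjusted p = 0.22). Chosen for their role after their values were seen, Ppargc1a was at 20.9 ± 8.7 and 15.7 ± 7.1 CPM, Nrf1 at 11.4 ± 2.0 and 12.7 ± 4.7, Gabpa at 110 ± 14.4 and 104 ± 5.9, and Tfam, which packages and transcribes mitochondrial DNA, at 36.9 ± 3.4 and 34.8 ± 1.9. These 4 overlapped between the groups. Ribosomal protein genes had 0 calls among 71 tested for mitochondrial ribosomes and 0 among 76 for cytosolic ribosomes. Of all tested genes the same 5.73% were called. The median SE was 0.27 for the mitochondrial list and 0.17 for the cytosolic list. Their median log2 fold changes were 0.07 and 0.08, where that of the respiratory chain members was -0.10, and the members of smallest p had changes of 0.57 (Mrpl51), -0.48 (Mrps25), 0.62 (Rps21) and 0.60 (Rps23). Whether these lists differ from the respiratory chain was not tested.

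**Figure D4:**
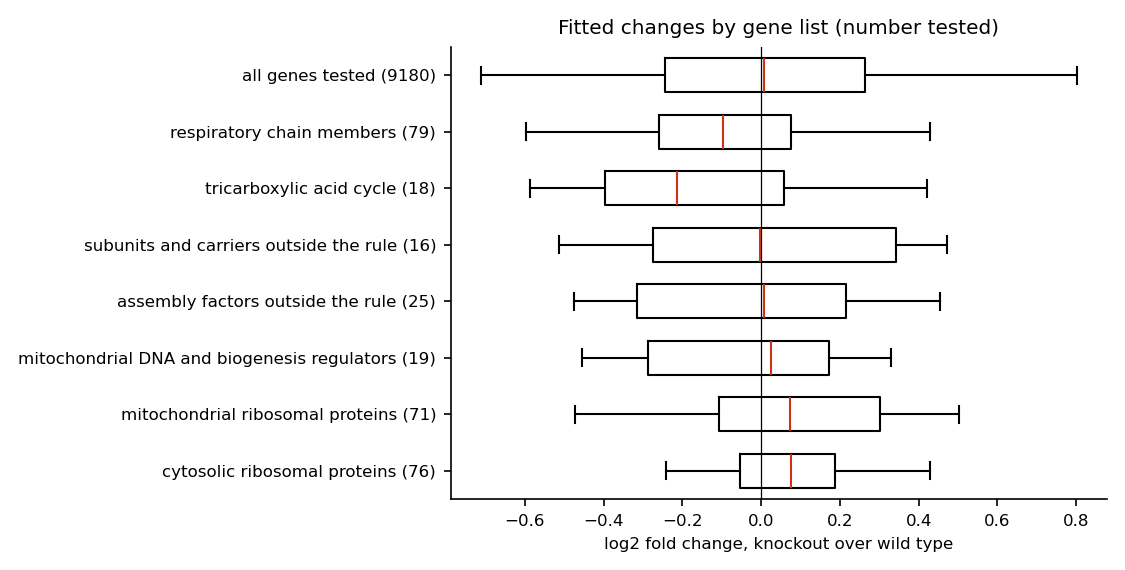
Log2 fold changes of tested genes by list, with the median in red, the box from the lower to the upper quartile and whiskers from the 5th to the 95th percentile. The respiratory chain median is -0.10 and that of the tricarboxylic acid cycle list -0.21, beside 0.01 for all 9180 tested genes.

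Counting could blur some members. Of the 90, 24 share near-identical sequence with a transcript of another gene and 24 overlap in their exons with a gene of the other strand. Of the 79 tested, 39 had neither kind of partner, counting overlaps on either strand. Their median log2 fold change was -0.14 with 1 call. It was -0.10 with 1 call for the 23 with a near-identical transcript and -0.10 with 0 calls for the 23 with an overlap. Of all tested genes 5.73% were called.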

How the data were processed

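Total liver RNA was sequenced in 6 libraries, grouped by genotype as the labels give it. The authors deposited raw read counts per gene symbol for each library. TopHat 1.4.1, HTSeq, edgeR and the build mm9 are listed in the submitters' processing notes, with no role. The annotation, strand setting and treatment of reads with several alignments are not stated there. Of 23284 genes, reads in no gene (93.3% to 95.8% of counted reads) and ambiguous reads were left out.

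Counts were tested with edgeR 4.0.16 (R 4.3.3), quasi-likelihood, TMM factors, filterByExpr with a minimum count of 10 and the group as the only term, and a gene was called at an adjusted p under 0.05 over 9180 tested genes. SE was taken as the fold change divided by the root of the F statistic, and 95% intervals use the fit's degrees of freedom. The low number of reads assigned to genes (1495583 to 2872421 per library) limits small changes, and intervals on counts cover counting error only. Why 93.3% to 95.8% of counted reads fell in no gene was not tested. With the strand setting and annotation not stated, counts of single genes may be incomplete or hold reads of overlapping genes. Alternatives changed the scaling, the test (DESeq2 1.42.0, limma-voom 3.58.1, exact test), the filter, the threshold and the libraries. The test was checked on simulated counts. Members, lists and tests were chosen with earlier results of these data known. Named were Trim24, called members, per complex the 4 smallest p and 2 highest mean counts, the tissue isoforms of complex IV, untested members, and of other lists up to 4 called genes or the 2 with the smallest p. Others were named for their role after their values were seen. 1 member is counted but not reported here by name. Transcript lengths, overlaps and near-identical transcripts came from GENCODE M21 (GRCm38) and promoters from RefSeq (GRCm38.p6), which is not the build the notes name.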

Additional observations from a re-analysis of the deposited data

How the results depend on the processing

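Among values that answer a comparison, 117 stayed close to the reported value over the alternatives and 31 moved, and the cause was not tested. Of 9180 genes, 283 were called higher and 243 lower. Without the filter these were 576 and 509, at an adjusted p under 0.1 they were 445 and 437, and with single libraries left out they ranged from 127 to 409 and from 95 to 363. Respiratory chain members called higher numbered 0, but 1 with the exact test, 2 without the filter, 1 with at least 1 CPM in 3 libraries (Cox6b2, which passes only through the knockout libraries) and 1 at an adjusted p under 0.1. Those called lower numbered 2, but 1 with library sizes alone, 5 without the filter, 5 at an adjusted p under 0.1, 1 with KO2 as the only knockout library, and 0 to 3 with single libraries left out. With library sizes alone the medians of complexes I and IV were 0.024 and -0.051. With KO2 as the only knockout library the medians of complexes I to V were -0.14, -0.66, -0.48, -0.23 and -0.45. With single libraries left out they ranged from -0.06 to -0.03, -0.39 to -0.19, -0.27 to -0.01, -0.19 to -0.050 and -0.30 to -0.05. The replicate block gave 295 genes higher and 250 lower, 0 and 2 members, and the same 2 calls. Same-numbered libraries of the groups had correlations of deviations of -0.07, 0.08 and 0.03, and differently numbered ones -0.12 to 0.09. With 3 libraries per group these values cannot tell whether the numbers pair the libraries.

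Some changes took the other sign. Members not listed here also crossed 0 over the alternatives, such as Atp5o (-0.44 to 0.18), Ndufc1 (-0.58 to 0.25) and Ndufv1 (-0.24 to 0.029). The changes listed here cover a part of the named genes, all of them uncalled except that of Cela1 (1.78). With library sizes alone they were 0.018 for Ndufa4, 0.037 for Cox6b1, 0.066 for Ndufaf4, 0.015 for Beta-s, 0.065 for Alas2, 0.0067 for Gabpa and 0.0039 for Tfam. With KO2 as the only knockout library they were 0.0064 for Ndufa4, -0.051 for Uqcrh, 0.16 for Ndufaf4, -0.12 for Cela1, 0.090 for Beta-s, 0.18 for Ppargc1a and -0.078 for Nrf1. With single libraries left out the changes ranged from -0.14 to 0.023 for Ndufa4, -0.0064 to 0.28 for Uqcrh, -0.19 to 0.062 for Cox6b1, -0.12 to 0.059 for Ndufaf4, -0.079 to 0.38 for Spp1, -0.19 to 0.16 for Beta-s, -0.20 to 0.15 for Alas2, -0.18 to 0.37 for Nrf1 and -0.17 to 0.019 for Gabpa. The number of reads in genes limits members of low level, since 1 count was worth 0.348 to 0.699 CPM.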
